A study of Mus musculus with 8 samples.

Results

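The genes described here are 38 p53 target genes, all 38 of which were found by gene symbol among the 24155 genes of the count table, and all 38 of which passed the filter on low counts that left 18102 genes for testing. RNA was measured in oligodendrocyte progenitors, which divide in the young brain and mature into the glia that make myelin. The cells were immunopanned from pups of both sexes at postnatal day 7 with floxed Ehmt1 and Ehmt2 (Ehmt1fl/fl;Ehmt2fl/fl), the genes of the histone H3 lysine 9 methyltransferases GLP and G9a. In the cKO group, 4 cultures received Ad-RFP-iCre, an adenoviral vector that expresses both a red fluorescent protein and the recombinase Cre, and in the control group 4 cultures received Ad-RFP, which lacks Cre. All 8 cultures carried the floxed alleles, were exposed to virus for 6 hours (multiplicity of infection 10), grew in medium with bFGF at 20 ng/mL and PDGF-AA at 10 ng/mL, and were collected 72 hours after infection. A number (1, 3, 4 or 6) names the batch that holds 1 cKO and 1 control library, and below, values of a group are always given in the order of batches 1, 3, 4 and 6. Nothing in the labels says how many animals a batch pooled or that batches came from separate animals, so p-values measure the spread between these pairs of libraries, which may be partly technical. No cells that received Cre without floxed alleles were analysed here. Cre can itself damage DNA, so an effect of Cre and the loss of Ehmt1 and Ehmt2 cannot be told apart in any value below.

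The transcription factor p53, encoded in the mouse by Trp53, is kept low in unstressed cells by the ubiquitin ligase Mdm2 and accumulates after DNA damage and other stress. It binds DNA as a tetramer and switches on genes that halt the cell cycle, repair DNA, feed back on p53 itself or lead to apoptosis, and in progenitors of the oligodendrocyte lineage it has been linked to both survival and exit from division. The 38 genes fall into these roles: 11 act on the cell cycle and survival, 4 in feedback on p53, 8 in apoptosis mainly through mitochondria, 3 as death receptors, 6 in DNA repair and nucleotide supply, 5 in metabolism and redox control, and 1 encodes a secreted stress signal.

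As a check of the labels, levels in CPM, counts scaled to a common library size, were compared. Ehmt1 averaged 41.5 ± 3.98 CPM in cKO libraries and 95.5 ± 5.58 CPM in control libraries (SD, n = 4 each). Ehmt2 averaged 58.4 ± 5.86 CPM in cKO and 177 ± 17.1 CPM in control libraries (SD, n = 4 each), and the groups did not overlap for either gene. Totals ran from 43542742 to 65374488 estimated counts per library. Summed levels of 9 progenitor markers were 8218 to 12305 CPM in cKO and 8933 to 13614 CPM in control libraries and lower in cKO in 4 of 4 pairs, with Pdgfra and Ptprz1 lower and Lhfpl3 higher past the threshold used below. Microglia markers (2 of 8 in the table) summed to 0.630 to 1.44 CPM in cKO and 0.317 to 0.902 CPM in control libraries and were higher in cKO in 4 of 4 pairs. The only marker of these tested, P2ry12, rose. Endothelial and pericyte markers (4 of 7) summed to 3.57 to 8.76 CPM in cKO and 2.97 to 11.0 CPM in control libraries. The share of counts from mitochondrial genes was higher in cKO in 4 of 4 pairs, at 3.31% ± 0.282 in cKO and 2.80% ± 0.370 in control libraries (SD, n = 4 each; exact paired permutation test, 2-sided, p = 0.13, the smallest that 4 pairs allow). The share taken by the ribosomal RNA gene CT010467.1 was lower in cKO in 4 of 4 pairs, at 7.67% ± 1.05 in cKO and 9.18% ± 0.951 in control libraries (SD, n = 4 each; the same exact test, p = 0.13).

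With batch as a block in edgeR's quasi-likelihood fit, 6 of the 38 p53 target genes rose in cKO and 2 fell at a Benjamini-Hochberg adjusted p of 0.05 over all genes tested, and 30 did neither. Fas, Pmaip1, Plk2, Rrm2b, Ptp4a3 and Trp53inp1 rose, by 19.3% to 61.4%, and Btg2 fell by 17.5% and Sulf2 fell by 6.54%. Over all 18102 genes, 10.0% rose and 10.4% fell, 20.5% in all, so the share of members called in either direction (8 of 38, 21.1%) was near that background. The share that rose was 15.8% of the members and the share that fell was 5.26%. At an unadjusted p under 0.05, 11 members were higher and 3 lower in cKO, 36.8% of the list against 34.3% of all genes. The median log2 fold change of cKO over control was 0.07 over the 38 members and -0.01 over all genes tested, and the median absolute change was 0.10 for the members and 0.12 for all genes. No member changed by as much as 1 on the log2 scale. In what follows, "rose" and "fell" mean past the threshold in this fit, and fold changes are log2 values ± SE from it.

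**Figure D1:**
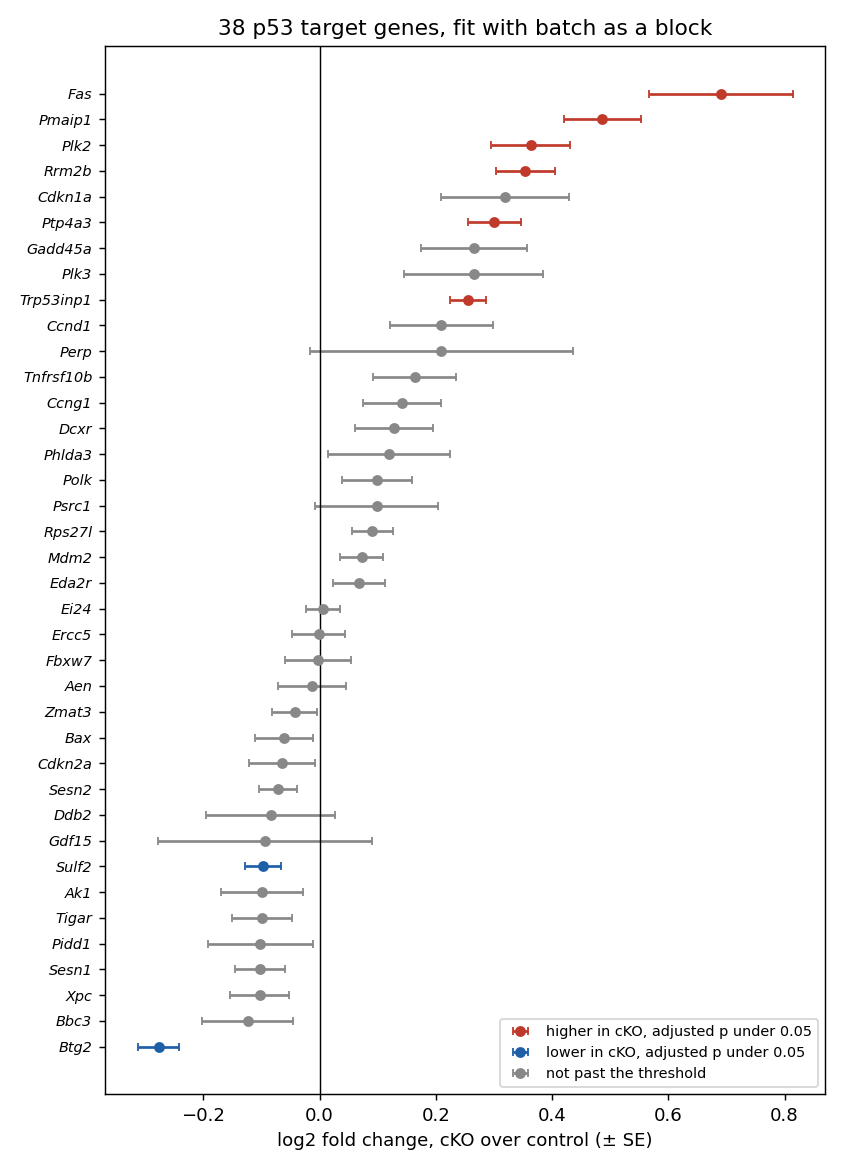
Log2 fold changes of cKO over control for the 38 p53 target genes, with points for the estimate and bars for 1 SE from edgeR's fit with batch as a block, coloured by whether the gene was higher, lower or neither at an adjusted p of 0.05. The 6 genes that rose lie between 0.26 and 0.69, and Btg2 at -0.28 and Sulf2 at -0.10 are the 2 that fell.

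These calls rest on comparing the libraries within a batch. In the fit without the block, 0 of the 38 members passed the threshold, against 0.0166% of all genes, and 0 had an unadjusted p under 0.05, against 4.93% of all genes. The lowest unadjusted p among the members in that fit was 0.0787, for Rrm2b. For 0 of the 38 members did all 4 cKO libraries lie above or below all 4 control libraries. Over all genes 2.4% lay wholly above and 1.28% wholly below, so 38 genes are too few to read the 0 as a difference.

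Among the genes of cell cycle and survival, 2 of 11 rose, 2 fell and 7 did neither. Plk2, a polo-like kinase that acts in the cell cycle and on centrioles (chr13:110395046-110400844, plus strand), measured 188, 188, 60.3 and 71.8 CPM in cKO libraries, against 172, 145, 46.5 and 47.6 CPM in control libraries. Its log2 fold change was 0.36 ± 0.07, with an adjusted p of 0.0117 in edgeR. Plk2 was higher in cKO within every batch, yet the groups overlapped because batches 1 and 3 were far above batches 4 and 6. Without batch 3 its change was 0.36 and its adjusted p was 0.0545, no longer past the threshold.

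Ptp4a3, a phosphatase of the PRL family associated with cell migration (chr15:73723145-73758766, plus strand), measured 41.0, 25.7, 19.9 and 19.7 CPM in cKO libraries, against 32.9, 21.8, 16.3 and 15.4 CPM in control libraries. It rose by 0.30 ± 0.05 (adjusted p = 0.00142 in edgeR). Every cKO library lay above its batch partner, and batch 1 was highest in both groups. Btg2, an antiproliferative cofactor that recruits messenger RNA deadenylases (chr1:134075170-134079120, minus strand), measured 57.2, 53.5, 29.9 and 79.1 CPM in cKO libraries, against 71.9, 61.7, 37.4 and 94.1 CPM in control libraries. It fell, with a log2 fold change of -0.28 ± 0.04 (adjusted p = 0.000629 in edgeR). Batch 6 was highest and batch 4 lowest in both groups, an order unlike that of most members. Sulf2, an extracellular sulfatase that edits heparan sulfate (chr2:166073089-166155663, minus strand), measured 528, 440, 649 and 497 CPM in cKO libraries, against 542, 468, 730 and 532 CPM in control libraries. Its change of -0.10 ± 0.03 (adjusted p = 0.0477 in edgeR) lay close to the threshold and was no longer past it without any 1 of the 4 batches, where the adjusted p ran from 0.0573 to 0.322. The gene overlaps Ncoa3 on the opposite strand, and the sources used here do not say whether the counting used strand.

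Cdkn1a encodes p21, the cyclin-dependent kinase inhibitor through which p53 classically arrests the cell cycle. It measured 285, 170, 82.6 and 72.8 CPM in cKO libraries, against 249, 169, 59.0 and 47.1 CPM in control libraries. It was higher in cKO in 4 of 4 pairs, by 0.01 on the log2 scale in batch 3 and by 0.62 in batch 6, and did not pass (0.32 ± 0.11, adjusted p = 0.114 in edgeR). Without batch 3 its change was 0.43 and its adjusted p was 0.0284. Leaving out batch 1, 4 or 6 instead gave an adjusted p of 0.175, 0.262 and 0.215 in edgeR. Control libraries differed among themselves far more, with 5.28 times as much Cdkn1a in the highest as in the lowest, against a largest difference within a pair of 1.54-fold.

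Ccng1, cyclin G1, which recruits a phosphatase to Mdm2, measured 575, 340, 258 and 242 CPM in cKO libraries, against 555, 351, 227 and 186 CPM in control libraries, and did not pass (0.14 ± 0.07, adjusted p = 0.189 in edgeR). It was higher in cKO in batches 1, 4 and 6 and lower in batch 3. Cdkn2a, whose products p16 and Arf restrain cyclin-dependent kinases and Mdm2 and which acts mainly upstream of p53, measured 18.3, 22.2, 15.2 and 15.9 CPM in cKO libraries, against 19.4, 23.0, 17.4 and 15.1 CPM in control libraries (-0.06 ± 0.06, adjusted p = 0.47 in edgeR). Its 8 levels lay between 15.1 and 23.0 CPM. Of the others in this role, the stress-response gene Gadd45a (0.27 ± 0.09, adjusted p = 0.0626 in edgeR), the kinase gene Plk3 (0.26 ± 0.12), the spindle protein gene Psrc1 (0.10 ± 0.11) and the cyclin gene Ccnd1 (0.21 ± 0.09) did not pass. Gadd45a passed without batch 6, where its change was 0.36 (adjusted p = 0.0203), and Psrc1 passed without batch 3, where its change was 0.23 (adjusted p = 0.0297). Neither passed with any other batch left out. Ccnd1 ranged from 227 to 1376 CPM in cKO libraries and from 170 to 1281 CPM in control libraries, with batches 1 and 3 high.

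**Figure D2:**
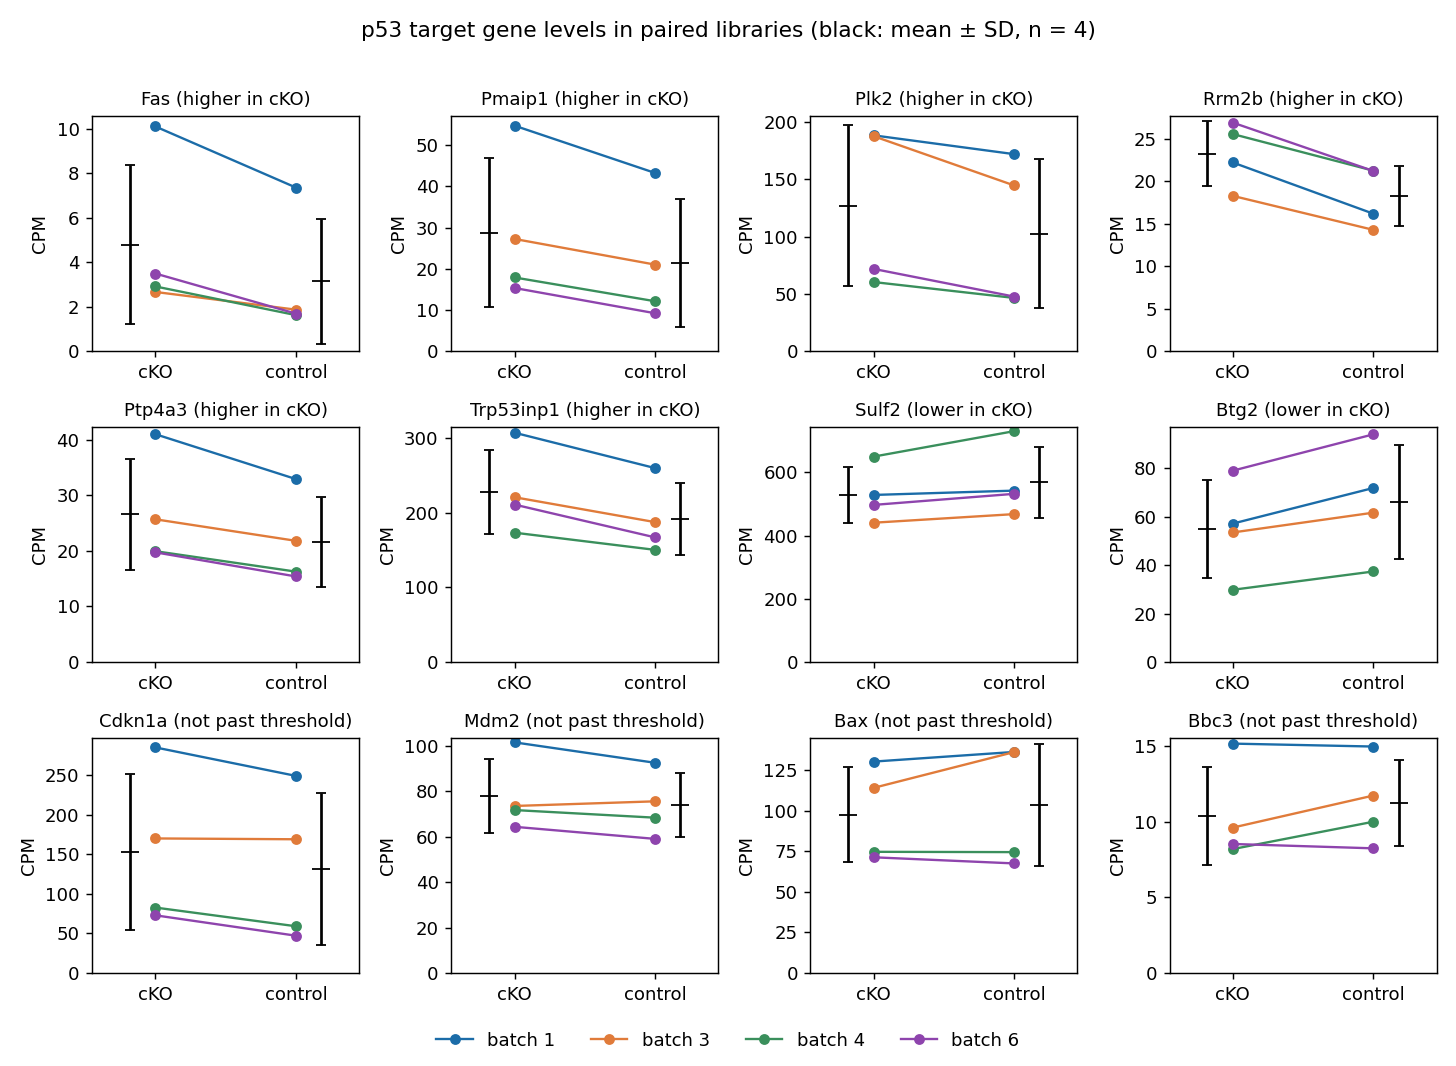
Levels in CPM (linear axes from 0) of 12 p53 target genes in cKO (left) and control (right) libraries, with a line joining the 2 libraries of a batch and black marks for the mean ± SD of 4 libraries. Lines slope the same way in all 4 batches for the 8 genes past the threshold, while the batches themselves lie further apart than the groups.

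The p53 recognition element is a pair of copies of a 10-base half-site, and the closely related p63 and p73 bind alike sequences. Windows from 250 bases before to 50 bases after each annotated start were taken from RefSeq (GRCm38.p6), in which 28 members matched by symbol, with 44 windows. Ccnd1, Ddb2, Perp, Pmaip1, Ptp4a3, Rrm2b, Tnfrsf10b, Trp53inp1, Xpc and Zmat3 had no window. The p53 half-site consensus, whose central CNNG has only A or T between its outer bases and which reads the same on both strands, was found with no mismatch in 11 of the 44 windows (25.0%), those of 10 members, against 8.36% of all 32851 windows. Windows of a gene can overlap, and the same half-site of Aen was counted in each of its overlapping windows. A pair of half-sites at most 13 bases apart, with at most 1 mismatch in each, was found in 3 windows (6.82%) against 2.71% of all windows. These 3, from Cdkn1a, Ccng1 and Rps27l, are printed 5′ to 3′ with the half-sites in capitals, and the window of Fas, the member with the largest change, is printed to show a window without a match.
Cdkn1a, chr17:29090729-29091028, plus strand: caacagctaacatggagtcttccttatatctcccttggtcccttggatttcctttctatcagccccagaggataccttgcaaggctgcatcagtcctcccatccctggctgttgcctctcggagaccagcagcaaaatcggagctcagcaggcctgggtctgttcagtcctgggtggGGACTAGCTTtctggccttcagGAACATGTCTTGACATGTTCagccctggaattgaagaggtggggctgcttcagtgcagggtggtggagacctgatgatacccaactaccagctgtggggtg
Ccng1, chr11:40755237-40755536, minus strand: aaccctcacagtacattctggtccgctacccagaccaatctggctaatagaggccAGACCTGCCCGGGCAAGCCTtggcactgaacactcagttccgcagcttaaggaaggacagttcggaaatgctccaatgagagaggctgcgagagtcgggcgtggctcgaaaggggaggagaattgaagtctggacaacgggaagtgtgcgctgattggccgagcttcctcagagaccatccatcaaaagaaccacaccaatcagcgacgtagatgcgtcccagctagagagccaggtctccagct
Rps27l, chr9:66946163-66946462, plus strand: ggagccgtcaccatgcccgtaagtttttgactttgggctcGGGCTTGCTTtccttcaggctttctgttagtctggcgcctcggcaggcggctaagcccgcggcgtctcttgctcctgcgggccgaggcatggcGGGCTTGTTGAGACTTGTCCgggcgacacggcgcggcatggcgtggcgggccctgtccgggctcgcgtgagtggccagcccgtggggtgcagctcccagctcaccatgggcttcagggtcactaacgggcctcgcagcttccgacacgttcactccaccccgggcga
Fas, chr19:34290409-34290708, plus strand: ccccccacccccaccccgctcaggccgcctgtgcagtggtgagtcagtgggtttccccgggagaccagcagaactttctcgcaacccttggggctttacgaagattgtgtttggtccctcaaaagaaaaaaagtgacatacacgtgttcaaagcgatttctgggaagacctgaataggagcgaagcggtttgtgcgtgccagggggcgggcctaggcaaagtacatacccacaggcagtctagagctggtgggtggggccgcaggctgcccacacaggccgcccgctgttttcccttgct
In the Cdkn1a window, which belongs to the upstream of its 2 annotated starts, 2 half-sites without mismatch lie 12 bases apart and a further one with a mismatch follows directly. Only 4 of the 8 members that changed had a window (Fas, Plk2, Btg2 and Sulf2), and their 5 windows held 0 half-sites without mismatch. The members with a half-site (Aen, Bax, Ccng1, Cdkn1a, Ei24, Gadd45a, Mdm2, Polk, Rps27l and Sesn1) were thus all among the 30 that did neither, as were most of the 28 members with a window. With 8.36% of all windows holding a half-site, 5 windows are too few to read the 0 as a difference. A match is a run of letters in this window and not a measured binding site. Elements farther from the start, or in introns, were not searched.

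Of the 4 genes in feedback on p53, 1 rose and 3 did neither. Trp53inp1, a nuclear protein that joins p53 in a complex that promotes its phosphorylation (chr4:11156431-11174379, plus strand), measured 307, 220, 173 and 211 CPM in cKO libraries, against 259, 187, 150 and 167 CPM in control libraries. It rose by 0.26 ± 0.03 (adjusted p = 0.000433 in edgeR), the smallest adjusted p among the members. Within batches the log2 difference was between 0.20 and 0.34. Mdm2, the ligase that marks p53 for degradation, measured 101, 73.5, 71.7 and 64.3 CPM in cKO libraries, against 92.5, 75.5, 68.4 and 59.0 CPM in control libraries (0.07 ± 0.04, adjusted p = 0.195 in edgeR). Zmat3, an RNA-binding zinc finger protein, measured 295, 262, 177 and 197 CPM in cKO libraries, against 294, 299.8, 180.5 and 191 CPM in control libraries (-0.04 ± 0.04, adjusted p = 0.489 in edgeR). Both changed direction between batches, with batch 3 lower in cKO. Fbxw7, a ubiquitin ligase subunit that degrades cyclin E, had a change of 0.00 ± 0.06 whose sign turned with the scaling.

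Of the 8 apoptosis genes, 1 rose and 7 did neither. Pmaip1 encodes Noxa, a BH3-only protein that neutralises the survival protein Mcl-1 (chr18:66458533-66465565, plus strand). It measured 54.8, 27.2, 17.9 and 15.3 CPM in cKO libraries, against 43.3, 21.0, 12.1 and 9.20 CPM in control libraries. Its log2 fold change was 0.49 ± 0.07, with an adjusted p of 0.000945 in edgeR. The gene was higher in cKO in every batch, and both groups descended in the order of batches 1, 3, 4 and 6.

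The other classical effectors of mitochondrial apoptosis did not pass. Bax, which permeabilises the outer mitochondrial membrane, measured 130, 114, 74.8 and 71.4 CPM in cKO libraries, against 136, 136, 74.6 and 67.6 CPM in control libraries (-0.06 ± 0.05, adjusted p = 0.44 in edgeR). Bbc3, encoding the BH3-only protein Puma, measured 15.2, 9.60, 8.19 and 8.52 CPM in cKO libraries, against 15.0, 11.7, 9.99 and 8.24 CPM in control libraries (-0.12 ± 0.08, adjusted p = 0.305 in edgeR). Phlda3, a repressor of the survival kinase Akt, measured 70.6, 44.7, 35.9 and 26.2 CPM in cKO libraries, against 65.9, 53.2, 29.2 and 20.3 CPM in control libraries (0.12 ± 0.10, adjusted p = 0.488 in edgeR). Each of the 3 was lower in cKO in batch 3 and higher in batch 6. Without batch 3 the change of Phlda3 was 0.25 and its adjusted p was 0.0276, but it did not pass with any other batch left out. The remaining 4 were the membrane protein gene Perp (0.21 ± 0.23, under 4 CPM in every library), the endoplasmic reticulum protein gene Ei24 (0.01 ± 0.03), the nuclease gene Aen (-0.01 ± 0.06) and Pidd1, a scaffold for caspase-2 (-0.10 ± 0.09).

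Of the 3 death receptors, Fas rose and the other two did neither. Fas, which triggers apoptosis on binding its ligand (chr19:34290666-34327772, plus strand), measured 10.1, 2.66, 2.91 and 3.49 CPM in cKO libraries, against 7.35, 1.86, 1.62 and 1.68 CPM in control libraries. Its log2 fold change was 0.69 ± 0.12, the highest of the 38, with an adjusted p of 0.00371 in edgeR. Batch 1 stood far above the others in both groups, and within every batch the cKO library was higher. Tnfrsf10b, the mouse receptor for the ligand Trail, ranged from 8.47 to 27.3 CPM in cKO and from 6.59 to 24.5 CPM in control libraries (0.16 ± 0.07, adjusted p = 0.134 in edgeR). Eda2r, a receptor for ectodysplasin A2, ranged from 63.2 to 174 CPM in cKO and from 55.5 to 169 CPM in control libraries (0.07 ± 0.05, adjusted p = 0.326 in edgeR).

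Of the 6 genes of DNA repair and nucleotide supply, 1 rose. Rrm2b, the p53-inducible small subunit of ribonucleotide reductase (chr15:37923952-37961318, minus strand), measured 22.2, 18.3, 25.5 and 26.9 CPM in cKO libraries, against 16.2, 14.3, 21.2 and 21.2 CPM in control libraries. It rose by 0.35 ± 0.05 (adjusted p = 0.00102 in edgeR). Batches 4 and 6 were highest here, unlike in Fas and Pmaip1, and 3 of the 4 cKO libraries lay above all 4 control libraries. Rrm2b overlaps Gm3362 on the same strand and Gm49085 on the opposite strand, so the division of reads among them is uncertain. The nucleotide excision repair genes Ddb2 (-0.08 ± 0.11), Xpc (-0.10 ± 0.05) and Ercc5 (0.00 ± 0.05), the translesion polymerase gene Polk (0.10 ± 0.06) and the ribosomal protein gene Rps27l (0.09 ± 0.04, adjusted p = 0.095 in edgeR) did not pass. Of these, Polk and Rps27l were higher in 4 of 4 pairs and Xpc was lower in 4 of 4.

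None of the 5 genes of metabolism and redox control passed. Sesn2, a sestrin that restrains the growth kinase mTORC1 and counters oxidants, measured 157, 106, 96.4 and 83.0 CPM in cKO libraries, against 160.2, 118, 101 and 85.2 CPM in control libraries (-0.07 ± 0.03, adjusted p = 0.154 in edgeR). Its relative Sesn1 had a change of -0.10 ± 0.04 (adjusted p = 0.114 in edgeR), and both sestrins were lower in cKO in 4 of 4 pairs. Tigar, a fructose bisphosphatase that slows glycolysis (-0.10 ± 0.05), the adenylate kinase gene Ak1 (-0.10 ± 0.07) and the xylulose reductase gene Dcxr (0.13 ± 0.07) did not pass. Dcxr had an adjusted p of 0.0496 without batch 3, with a change of 0.21, but did not pass with any other batch left out. Gdf15, the secreted stress cytokine, measured 2.64, 0.737, 0.989 and 0.387 CPM in cKO libraries, against 2.71, 1.09, 0.936 and 0.341 CPM in control libraries (-0.09 ± 0.18, adjusted p = 0.771 in edgeR). It was lower in cKO in batches 1 and 3, higher in batches 4 and 6, and highest in batch 1 of both groups.

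The 4 batches did not move alike. Within batch 6, 31 of the 38 members were higher in cKO than in control, with a median log2 difference of 0.15, and within batch 4 there were 27, with a median of 0.06. Within batch 1, 26 were higher, with a median of 0.05. In batch 3 the balance was the other way, with 12 higher and 26 lower and a median of -0.05. Over all genes, 47.8% to 50.7% were higher in cKO within a batch, and the medians lay between -0.01 and 0.00. In 4 of 4 pairs, 11 members were higher in cKO (28.9%) against 19.5% of all genes, and 5 were lower (13.2%) against 21.3% of all genes. The 11 were Fas, Pmaip1, Plk2, Rrm2b, Ptp4a3, Trp53inp1, Cdkn1a, Plk3, Ccnd1, Polk and Rps27l, and the 5 were Btg2, Sulf2, Xpc, Sesn1 and Sesn2. Without batch 3, 9 members passed as higher, adding Cdkn1a, Psrc1, Phlda3 and Dcxr and losing Plk2. In that fit 1127 of 18135 genes tested passed as higher. Leaving out batch 1, 4 or 6 instead gave 6, 6 and 7 members higher. In those fits 1224 of 18082, 1208 of 18223 and 1702 of 18052 genes tested passed as higher.

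**Figure D3:**
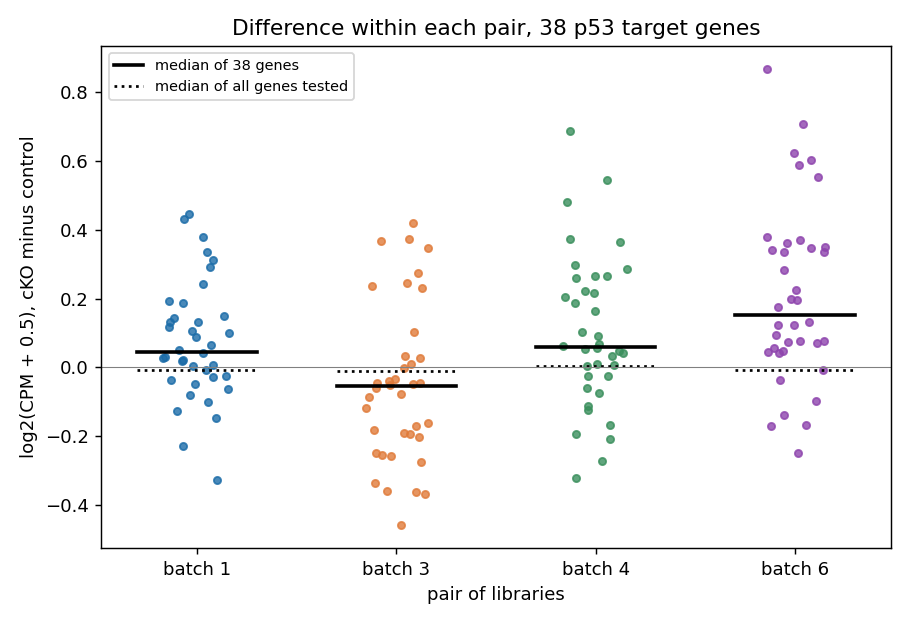
Log2 difference of cKO minus control within each batch for the 38 p53 target genes (y axis, log2 of CPM plus 0.5; x axis, batch), with 1 point per gene, a solid line at the median of the 38 genes and a dotted line at the median of all genes tested. Batch 6 has 31 members above 0 and batch 3 has 12.

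Differences between batches were larger than those between cKO and control for the whole list. In control libraries the highest level of a member was between 1.19 and 7.94 times its lowest, with a median of 2.26, whereas the median of the largest fold within a pair was 1.26. For 38 of 38 members the span over control libraries exceeded the largest fold within a pair, with 0.5 CPM added only for the pairs. Among all genes this held for 80.6%, with 0.5 CPM added for both measures, so the 2 shares are not strictly alike. Batches 1 and 3 both lay above batches 4 and 6 for 27 of 38 members in cKO libraries and for 30 of 38 in control libraries, an order shown by 27.4% of all genes in cKO and 28.7% in control libraries. The reverse order was seen for 3 members in cKO and 4 in control libraries. Summed over the 38 members, the level was 5510.0, 4494, 2681 and 2628 CPM in cKO libraries, against 5224, 4529, 2647 and 2367 CPM in control libraries. Of these sums, Ccnd1 alone gave 1367, 1376, 227 and 250 CPM in cKO libraries, and 1239, 1281, 220 and 170 CPM in control libraries. The sums were thus high in batches 1 and 3 of both groups, and the cKO sum was the higher in batches 1, 4 and 6. The direction in batch 3 turned with the scaling, since as a share of unscaled counts the members made up 0.462% in the cKO and 0.458% in the control library of that batch.

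**Figure D4:**
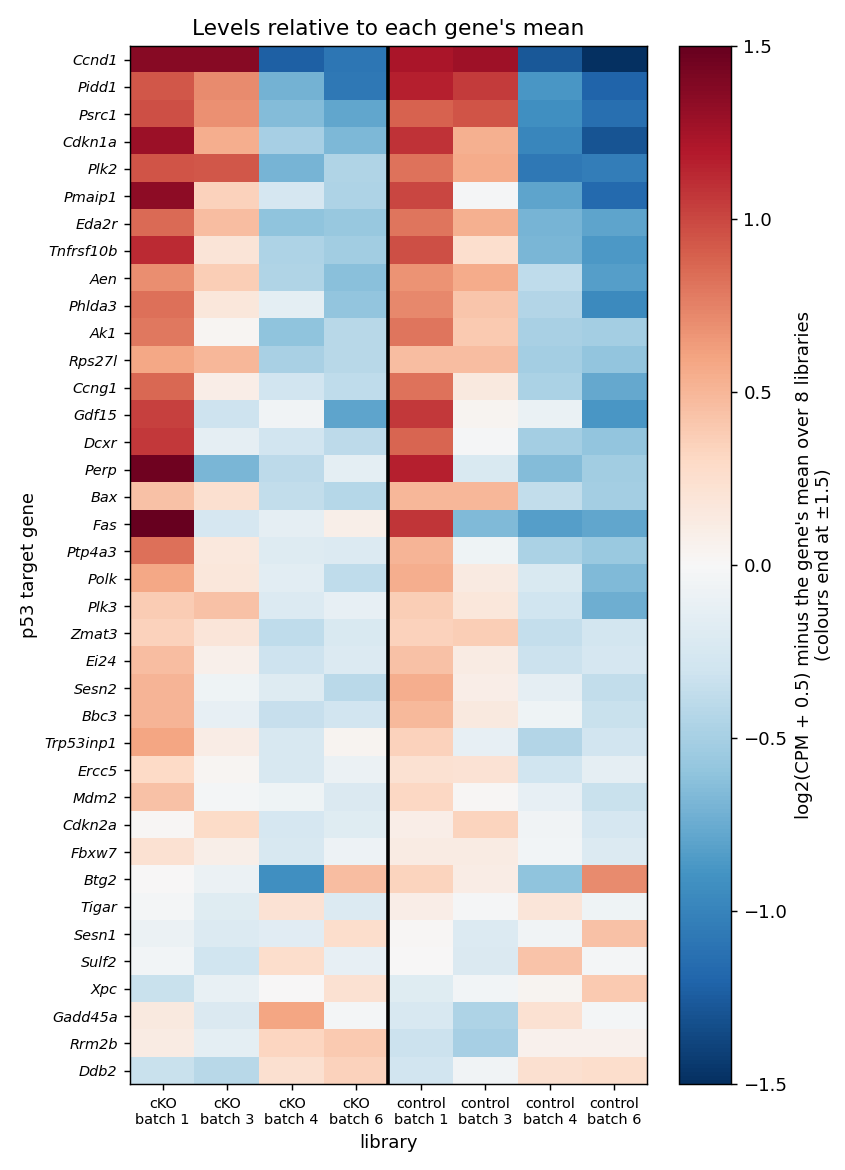
Levels of the p53 target genes by batch (1, 3, 4 and 6) in cKO and in control libraries, with 1 row per gene, 1 column per library and colour for log2 of CPM plus 0.5 relative to the gene's own mean over the 8 libraries. In control libraries 30 of 38 genes, and in cKO libraries 27 of 38, have batches 1 and 3 both above batches 4 and 6.

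Sums of division genes were also high in batches 1 and 3, with batch 3 above batch 1 in both groups. The 20 cell cycle genes that p53 is known to repress through the DREAM complex summed to 4050.2, 4310.4, 1697 and 1415 CPM in cKO libraries, against 4401, 4642, 1760.3 and 1067 CPM in control libraries. Their sum was lower in cKO in batches 1, 3 and 4 and higher in batch 6. Gene by gene, 13 of 20 had a log2 fold change above 0 and 7 below, with a median of 0.02. In the main fit 0 of 20 passed in either direction. Without batch 6, 8 of 20 passed as lower, against 1730 of 18052 genes tested. Without batch 1, 3 or 4, 0 of 20 passed as lower. Markers of other cells moved as well, against 10.0% of all genes that rose and 10.4% that fell. Of 7 myelin markers tested, 5 rose. All 8 myelin markers, 1 of them untested, summed to 291 to 2591 CPM in cKO and 237 to 1614 CPM in control libraries. This sum was higher in cKO in 4 of 4 pairs. All 9 neuron markers (4 of the 8 tested rose) summed to 73.9 to 103 CPM in cKO and 45.4 to 87.0 CPM in control libraries. Their sum was also higher in cKO in 4 of 4 pairs. Astrocyte markers (2 rose and 2 fell, of 7) summed to 699 to 2043 CPM in cKO and 795 to 2278 CPM in control libraries. Their sum was higher in cKO in 0 of 4 pairs, although 5 of 7 had a log2 fold change above 0, with a median of 0.05. The part of cell composition, mitochondrial and ribosomal RNA share and batch in the p53 target values was not tested. In these bulk libraries, fewer cells of a type and less RNA per cell cannot be told apart.

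The messenger RNA of p53 itself fell in cKO. Trp53 measured 67.2, 70.7, 49.4 and 48.1 CPM in cKO libraries, against 75.3, 86.6, 52.4 and 55.3 CPM in control libraries (-0.19 ± 0.04, adjusted p = 0.00819 in edgeR). It was lower in cKO in every batch, with its highest levels in batches 1 and 3, and without batch 3 its adjusted p was 0.0504. Since p53 is controlled mainly as a protein, its activity was not measured here. Of 29 tested genes of p53 and its regulators, 3 rose (10.3%, against 10.0% of all genes) and 1, Trp53, fell (3.45%, against 10.4%). Chek1, a checkpoint kinase (0.19 ± 0.06, adjusted p = 0.0419 in edgeR), Rpl5, a ribosomal protein that can bind Mdm2 (0.17 ± 0.04, adjusted p = 0.0127), and Ppp1r13b, encoding the p53 cofactor ASPP1 (0.37 ± 0.08, adjusted p = 0.0122), rose. Chek1 was no longer past the threshold without any 1 of the 4 batches, and Ppp1r13b was not without batch 1 or batch 4 (adjusted p of 0.0557 and 0.0671). Mdm4, the partner of Mdm2 (-0.07 ± 0.03, adjusted p = 0.17), and the damage kinase gene Atm (0.04 ± 0.07, adjusted p = 0.755) did not pass.

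Of 45 further p53 target genes tested, 5 rose (11.1%, against 10.0% of all genes), 3 fell (6.67%, against 10.4%) and 37 did neither, with a median log2 fold change of -0.01. Trp53i11, a p53-inducible membrane protein, measured 162, 218, 67.6 and 52.4 CPM in cKO libraries, against 89.9, 126, 30.5 and 32.4 CPM in control libraries. It rose by 0.87 ± 0.07 (adjusted p = 0.000331 in edgeR), more than any of the 38 members, and was higher in every batch. The carnitine acyltransferase gene Crot (0.17 ± 0.03), the early response gene Ier3 (0.36 ± 0.09) and the lipase gene Abhd4 (0.12 ± 0.03) also rose, and the growth factor gene Tgfa (-0.28 ± 0.04), the lipid transfer protein gene Pltp (-0.38 ± 0.10) and the AMP-activated kinase subunit gene Prkab1 (-0.14 ± 0.04) fell. Of these, Trp53i11 and Tgfa were still past the threshold whichever batch was left out, and each of the others lost its call without at least 1 batch.

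Of 29 tested genes of the DNA damage response, 2 rose (6.90%, against 10.0% of all genes) and 3 fell (10.3%, against 10.4%), with a median of 0.00. Xrcc5, encoding the Ku80 subunit that holds broken DNA ends, measured 39.0, 41.0, 39.5 and 42.5 CPM in cKO libraries, against 33.2, 34.0, 30.5 and 34.6 CPM in control libraries (0.29 ± 0.04, adjusted p = 0.000857 in edgeR). Xrcc4, the partner of DNA ligase IV in the same end-joining pathway, measured 9.34, 10.2, 9.77 and 10.3 CPM in cKO libraries, against 7.74, 7.07, 7.18 and 6.65 CPM in control libraries (0.47 ± 0.08, adjusted p = 0.00264 in edgeR). For both genes the 4 cKO libraries lay wholly above the 4 control libraries, as for 2.4% of all genes and 0 of the 38 p53 target genes. The poly(ADP-ribose) polymerase gene Parp1 (-0.22 ± 0.03, adjusted p = 0.000729), the histone gene H2ax (-0.21 ± 0.04, adjusted p = 0.0111) and the Fanconi anaemia gene Fanca (-0.24 ± 0.05, adjusted p = 0.00659) fell. H2ax was not past the threshold without batch 1, 3 or 4, and Fanca was not without batch 3 (adjusted p = 0.0575).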

How the data were processed

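The submitters' processing notes name STAR, cutadapt, Partek and DESeq2 and the mm10 genome. The sources used here do not say which versions or annotation were used, or whether counting used strand. The authors deposited estimated counts for each gene without normalization, and 52% of the values are not whole numbers.

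Counts were rounded, filtered with filterByExpr (minimum count 10), scaled by TMM and tested with edgeR 4.0.16 (glmQLFit, robust, and glmQLFTest, R 4.3.3), with the batch number as a block, over all 18102 genes (6053 filtered out), with Benjamini-Hochberg adjustment. CPM are counts over TMM-scaled library sizes. Within-pair differences and the test for outlying libraries used log2 values with a pseudocount of 0.5 CPM. The batch names in the labels pair the libraries. Deviations from group means correlated at 0.750 to 0.791 within a batch number and at most 0.394 otherwise.

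Alternatives were the fit without the block, other scalings and filters, DESeq2 1.42.0, limma-voom 3.58.1 and each pair left out. The calling steps were also run on counts simulated from the fitted edgeR model. Such counts share the model's assumptions, so that run cannot show whether the calls hold for these libraries. No 2 libraries of a group were duplicates. Members and lists were chosen with earlier results of these data known. All 38 members were accounted for, with values per library for those past the threshold and for Cdkn1a, Mdm2, Bax, Bbc3, Pmaip1, Ccng1, Zmat3, Phlda3, Trp53inp1, Sesn2, Gdf15 and Cdkn2a. From other lists, at most 4 genes per direction past the threshold were named by smallest p, plus Trp53, Mdm4 and Atm.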

Additional observations from a re-analysis of the deposited data

Results flagged for a closer look

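Over 76 sets of 4 libraries (38 members in each group), 1 held a library far from the others by Dixon's test at the 95% level, where chance gives about 1 in 20. In control libraries Fas was 7.35 CPM in batch 1 and 1.62 to 1.86 CPM in the other three. On the scale the test used, log2 of CPM plus 0.5, the gap was 0.916 of the whole range. The cKO library of the same batch was also the highest of its group, at 10.1 CPM. Without batch 1, Fas had an adjusted p of 0.0117 and a log2 fold change of 0.81 in edgeR, still past the threshold.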

How the results depend on the processing

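Without the replicate block, edgeR called 1 gene higher and 2 lower over all genes, and 0 higher and 0 lower among the p53 targets, the regulators, the other p53 targets and the DNA damage genes. With the pairing kept, 6 p53 targets were higher under every scaling, filter and tool tried, while 1 rather than 2 was lower under upper-quartile factors, without the ribosomal RNA gene CT010467.1, with no filter, with at least 1 CPM in 4 libraries and in DESeq2, since Sulf2 was lost. Leaving out each pair in turn gave 1127 to 1702 genes higher and 910 to 1730 lower over all genes. It gave 6 to 9 p53 targets higher and 1 lower, 1 to 2 regulators higher and 0 to 2 lower, 2 to 4 other targets higher and 1 to 3 lower, 2 DNA damage genes higher and 1 to 7 lower, 0 cell cycle genes higher and 0 to 8 lower, and a difference in mitochondrial share of 0.490 to 0.560 percentage points.

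Signs changed only in genes past no threshold under either setting (log2 values). Fbxw7 was 0.0016 without the block, 0.0114 with upper-quartile factors, 0.0037 without CT010467.1, 0.0043 with no filter, 0.0035 with the 1 CPM filter and 0.0001 in limma-voom. Aen was 0.0009 with upper-quartile factors, and Ercc5 was 0.0125 with them, 0.0048 without CT010467.1, 0.0054 with no filter and 0.0046 with the 1 CPM filter. With each pair left out in turn, Fbxw7 ran between -0.0444 and 0.0771, Zmat3 between -0.0707 and 0.0113, Bax between -0.107 and 0.0082, Ei24 between -0.0064 and 0.029, Aen between -0.0798 and 0.0522, Pidd1 between -0.1673 and 0.002, Ddb2 between -0.1475 and 0.0185, Ercc5 between -0.0239 and 0.0633, Gdf15 between -0.1418 and 0.0498, and Atm between -0.0586 and 0.0843. The causes of these shifts were not tested. Depth limits Gdf15 and Perp, at 1 CPM or less in some libraries.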
